A study of Mus musculus with 36 samples.

Results

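The imprinted growth genes are 10 mouse genes that are transcribed mainly from the copy inherited from a single parent and that regulate how much the embryo and its placenta grow: H19, Igf2, Cdkn1c, Peg3, Mest, Dlk1, Grb10, Plagl1, Peg10 and Igf2r. They were taken as every probe of the deposited intensity table that carried 1 of these 10 symbols, which gave 22 of 45281 probes and 10 of 30869 gene symbols. After a filter on detection, 9 of the genes and 17 of their probes were tested, among 15556 genes and 21712 probes.

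Igf2 is a secreted growth factor made from the paternal copy, and H19 is a long non-coding RNA made from the maternal copy of the adjoining locus, where shared enhancers and a methylated control region decide which of them is active. On the restraining side, Igf2r carries Igf2 to the lysosome for breakdown, Cdkn1c inhibits cyclin-dependent kinases, and Grb10 damps signalling from the insulin and Igf1 receptors. The paternally transcribed genes Peg3 and Plagl1 encode zinc-finger proteins, Mest a protein with a hydrolase fold, Dlk1 a transmembrane relative of the Notch ligands, and Peg10 a protein derived from a retrotransposon. The arrays read the RNA of both parental copies together, so allelic expression was not measured.

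Gene expression was measured on 36 Illumina BeadChip arrays in untreated wild-type embryos of the outbred strain MF1, in 16 regions dissected from around the primitive streak and, later, the tail bud. Each array carried amplified RNA from a pool of 6 to 74 pieces of the same region, and replicates were separate pools, so a p-value here measures the spread between pools. A piece held the named region and minor cell types beside it. At E7.5, the headfold stage, the regions were A (anterior, 3 arrays), P (posterior, 2 arrays) and PP (proximal posterior, 2 arrays). At E8.5, with 2 to 5 somites, they were the rostral node RN (2 arrays), the node-streak border NSB (3 arrays), the caudal lateral epiblast CLE (3 arrays), the anterior streak St1 (2 arrays) and the posterior streak St5 (2 arrays). The chordoneural hinge, CNH, a progenitor region of the tail bud, was taken at E9.5 (22 to 25 somites), E10.5 (32 to 35), E11.5 (40 to 45), E12.5 (50 to 55) and E13.5 (60 to 63), with 3 arrays at E11.5 and 2 at each other stage. The tissue posterior to the hinge, P-CNH, was taken at E9.5, E10.5 and E11.5 with 2 arrays each.

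Defining markers followed the region labels. Shh was higher in CNH than in P-CNH by 5.13 ± 0.33 on the log2 scale (SE, adjusted p = 2.51e-09), a difference from background in P-CNH at E9.5 and E10.5, where it was detected on no array. The streak gene Cdx2 was lower in E7.5 A than in P, with a log2 difference of -5.93 ± 0.22 (adjusted p = 2.69e-14). The posterior mesoderm gene Tbx4 was higher in St5 than in the rest of E8.5 (adjusted p = 1.07e-12), and was detected on 2 of 2 arrays there and 6 of 10 elsewhere at that stage. An array detected between 10814 and 16256 probes (detection p under 0.01), with a median of 15054. The 5 lowest counts came from CLE (11062 in replicate 1 and 12289 in replicate 2), E7.5 P replicate 1 (13073), E11.5 P-CNH replicate 1 (12280) and E13.5 CNH replicate 2 (10814). The labels place 12 arrays in each of 3 batches. All arrays of RN, of both streak regions and of E10.5 were in batch 1 with NSB replicates 1 and 2, so a single array, NSB replicate 3, tied these regions to the rest once batch was a term of the model.

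Of the 9 tested genes, 8 had a probe detected on all 36 arrays, and Peg10 was detected on 21. Plagl1 had 3 probes, detected on 0 arrays, and was not tested. Its brightest single reading was an intensity of 108, which leaves its RNA below what these probes resolved. The most intense probes of H19, Igf2 and Grb10 were among the brightest of the array, never below its 96.9th percentile, while the second H19 probe went down to 84.1 and the second Grb10 probe to 68.9. Igf2 reached an intensity of 28325, H19 30283 and Grb10 31548, where the brightest probe of an array read between 21144 and 38681. Compression at the top of the range was not tested. Across the 16 regions 8 of the 9 genes differed by limma's moderated F test, against 38.1% of all genes tested. Grb10 did not (adjusted p = 0.227). Igf2r differed on its most intense probe (adjusted p = 0.0024) but not on its second (adjusted p = 0.517).

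**Figure D1:**
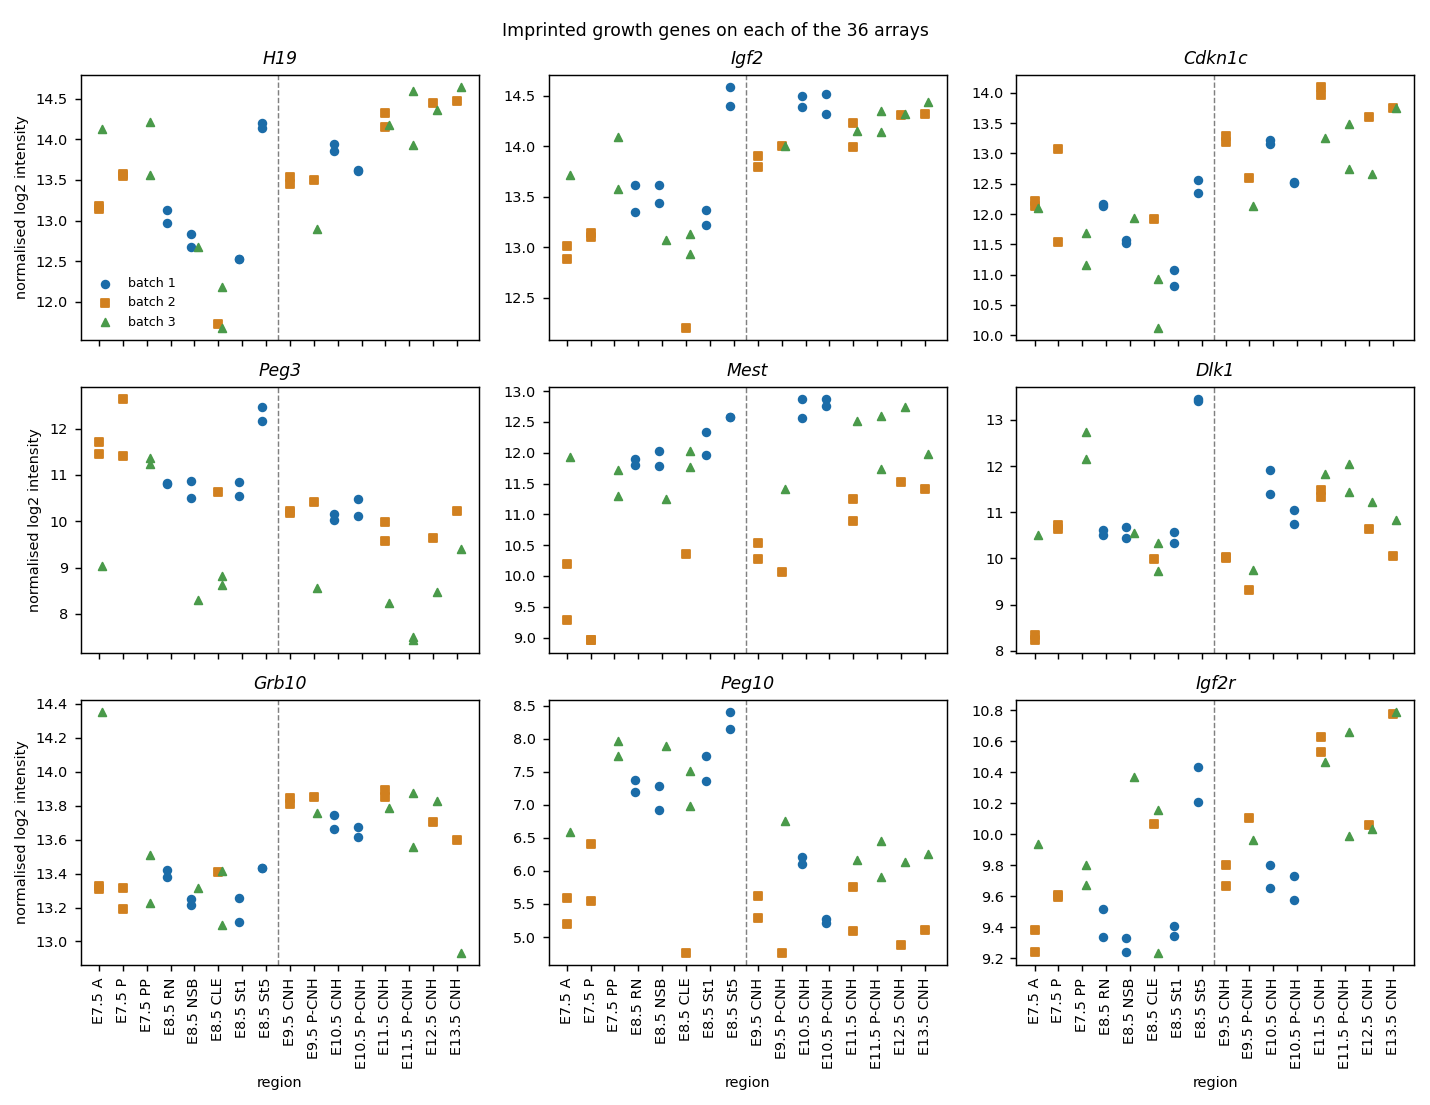
Normalised log2 intensity (y axis) of the most intense probe of each tested gene on every array, by region (x axis), with batch as colour and shape and a dashed line between E8.5 and E9.5. Dlk1 stands at 13.41 and 13.45 in St5, and Peg3 and Mest separate by batch within single regions.

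The widest comparison set the mean of the 8 tail bud regions (17 arrays) against the mean of the 8 regions up to E8.5 (19 arrays), and so spans the passage from streak to tail bud. A gene was called when its adjusted p was at most 0.05 and its change at least 1.5-fold, judged on its most intense tested probe. By this measure 6 of the 9 imprinted growth genes were called, against 20.7% of all genes tested. H19, Igf2, Cdkn1c and Mest rose, 4 of 9 against 11.6% called higher among all genes. Peg3 and Peg10 fell, 2 of 9 against 9.1% called lower. The median difference of the 9 genes was 0.33 on the log2 scale, beside -0.01 over all genes. In bulk pieces, fewer cells of a type and less RNA per cell cannot be told apart.

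Igf2 and H19, the linked growth factor and non-coding RNA, moved the same way. In the tail bud, Igf2 lay between 13.80 and 14.52 with a median of 14.31 on the normalised log2 scale, and in the earlier regions between 12.20 and 14.59 with a median of 13.35. All 17 tail bud arrays stood above that earlier median, and the groups met because both St5 arrays and E7.5 PP replicate 1 reached tail bud levels. The rise was 0.92 ± 0.10 (SE), or 1.89-fold (adjusted p = 1.87e-07). H19 ran from 12.90 to 14.65 in the tail bud (median 13.94) and from 11.68 to 14.22 before it (median 13.14). Its arrays overlapped too, with the lowest values in CLE and high values already in St5 and in part of E7.5. H19 rose by 0.83 ± 0.12 (adjusted p = 1.33e-05), and its other probe by 0.87 ± 0.27.

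Both loci, and Mest, also contain microRNA genes, shown here because their host transcripts rose. The arrays did not measure the mature microRNAs. The sequences are from RefSeq (GRCm38.p6), with the seed, bases 2 to 8, in capitals. The miR-675 arms lie within H19 on the minus strand of chromosome 7, the miR-483 arms within Igf2 on the same strand, and the miR-335 arms within Mest on the plus strand of chromosome 6. No seed was shared among the 6.
mmu-miR-675-5p: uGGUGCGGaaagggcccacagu
mmu-miR-675-3p: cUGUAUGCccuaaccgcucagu
mmu-miR-483-5p: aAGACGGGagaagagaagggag
mmu-miR-483-3p: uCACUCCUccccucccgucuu
mmu-miR-335-5p: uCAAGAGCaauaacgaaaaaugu
mmu-miR-335-3p: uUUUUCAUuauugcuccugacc

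Cdkn1c, the cell cycle inhibitor, had the largest rise of the 9 genes in this comparison. Its tail bud arrays ran from 12.12 to 14.10 (median 13.22) and the earlier ones from 10.12 to 13.07 (median 11.92). The groups overlapped, with E7.5 P replicate 1 and St5 highest among the earlier arrays and the P-CNH arrays of E9.5 and E10.5 lowest in the tail bud. The difference was 1.20 ± 0.17, or 2.30-fold (adjusted p = 5.31e-06). Mest ranged from 10.07 to 12.87 in the tail bud and from 8.95 to 12.59 before it, with medians of 11.74 and 11.79. The medians nearly coincide, while the earlier range reaches lower. On its most intense probe Mest differed between batches by up to 2.09, where the median gene differed by 0.73. The other 2 Mest probes shifted less. Batch adjustment took E7.5 P from 9.55 to 9.96 and from 8.30 to 8.62 on these, beside 8.95 to 10.13 on the most intense. With batch as a term Mest rose by 0.80 ± 0.14 (adjusted p = 0.000108), and its other 2 probes by 0.92 ± 0.10 and 0.94 ± 0.12. Without the batch term Mest was 0.46 higher on its most intense probe and was not called.

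Peg3 and Peg10 went the other way. Peg3 lay between 7.43 and 10.47 in the tail bud (median 9.99) and between 8.30 and 12.63 earlier (median 10.85). The ranges overlapped, the highest arrays being E7.5 P replicate 1 and those of St5 and the lowest those of E11.5 P-CNH. Peg3 fell by 1.18 ± 0.15, a 2.27-fold difference (adjusted p = 1.33e-06), and its second probe, detected on 10 of 17 tail bud arrays and 16 of 19 earlier ones, was also called lower, partly against background. Its batches differed by 2.39, above the 95th percentile over genes of 2.18, with batch 3 lowest. Peg10, the retrotransposon-derived gene, was dim. It was detected on 15 of 19 earlier arrays and 6 of 17 tail bud arrays, with medians of 7.28 and 5.75 and overlapping ranges. It fell by 1.31 ± 0.16, or 2.47-fold (adjusted p = 7.62e-07), and part of that value rests on arrays where the probe was not above background.

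The remaining genes were not called. Dlk1 had a wide range in both groups, from 9.32 to 12.04 in the tail bud and from 8.22 to 13.45 earlier. Its highest and its lowest arrays were both early, in St5 and E7.5 A, and the mean difference was 0.06 ± 0.16 (adjusted p = 0.81). This value changed sign to -0.053 without the batch term and to -0.12 when BeadChip was fitted as a random block, while within batch 2 alone Dlk1 was called higher, at 0.63 (adjusted p = 0.00404). Grb10, the receptor adaptor, passed on adjusted p (0.0303) but not on size, with a difference of 0.33 ± 0.11. Igf2r, which clears Igf2, differed by 0.20 ± 0.11 (adjusted p = 0.206), and its second probe by -0.19 ± 0.37. Within batch 2 alone Igf2r too was called higher, at 0.59 (adjusted p = 0.00539).

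Each batch held regions of both periods, though not the same ones. Within batch 1 (4 tail bud and 8 earlier arrays) 6 of 9 genes were called, against 19.8% of all genes in the same fit. Within batch 2 (7 and 5 arrays) 7 were called against 29.9%, Dlk1 and Igf2r among them and Peg10 not (adjusted p = 0.405). Within batch 3 (6 and 6 arrays) Peg3 alone was called, against 5.13%. Igf2 differed by 0.73, 1.36 and 0.82 in batches 1, 2 and 3, H19 by 0.63, 1.21 and 0.91, and Cdkn1c by 1.08, 1.32 and 1.48. Mest was 0.64, 1.21 and 0.52 higher. Peg3 was lower in each, at -0.94, -1.36 and -0.91. Peg10 varied most, at -1.85, -0.26 and -1.10. Batch 3 gave the same directions for these genes with adjusted p between 0.0535 and 0.34 for the 5 it did not call.

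**Figure D2:**
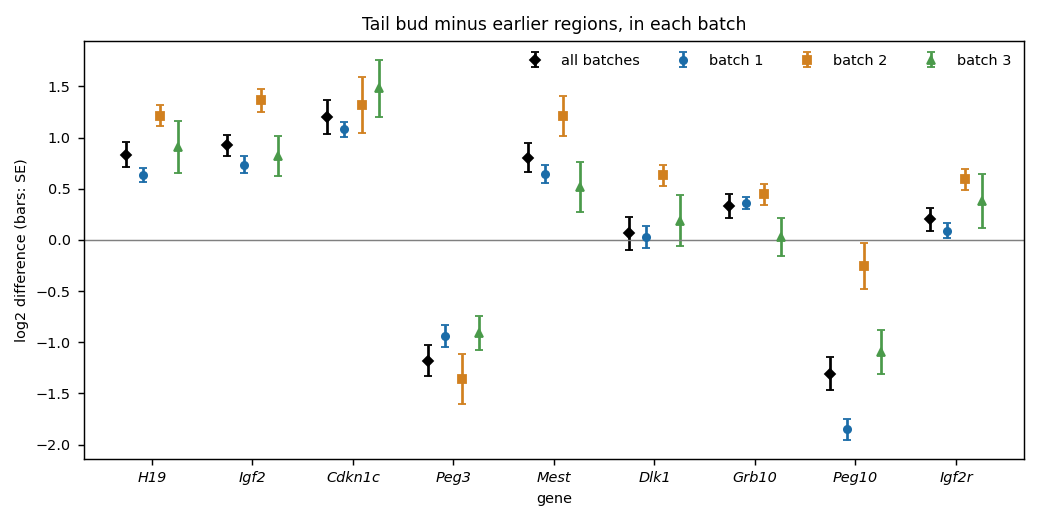
Log2 difference between tail bud and earlier regions (y axis, bars SE) for each tested gene (x axis), from all arrays with batch as a term and within each batch alone. The 4 genes called higher lie above 0 in every batch and Peg3 and Peg10 below it, with Peg10 nearest to it in batch 2, at -0.26.

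Other genes of the same systems were compared through lists. Among 30 tested of 47 other imprinted genes, 3 rose and 4 fell, beside 11.6% and 9.1% of all genes, with a median of 0.06 where that of all genes was -0.01. Phlda2, a growth-restraining gene of the Cdkn1c cluster, fell by 4.32 (adjusted p = 9.42e-18), and no tail bud array reached an earlier one. Slc22a18 of the same cluster was called lower and was detected on 0 of 17 tail bud arrays, so its fall was from 17 of 19 earlier arrays to background, at least 1.496-fold. Snurf fell by 0.92 and Slc38a4 by 0.60. Osbpl5 rose by 1.32, Ndn by 0.81 and Trappc9 by 0.71.

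The IGF pathway list held 13 tested genes, of which 6 rose and 1 fell (median 0.31). The IGF binding protein gene Igfbp7 was called higher and went from detection on 2 of 19 earlier arrays to 17 of 17, so its size of change was set mostly against background. Igfbp5, another of the kind, rose by 1.73, the adaptor Irs2 by 1.58 and the receptor Igf1r by 1.53. Igfals, whose product binds circulating IGF complexes, fell by 1.06, with 3 of 17 tail bud arrays above background. Among 6 tested paralogues of the imprinted growth genes, the kinase inhibitor Cdkn1a rose by 1.31 and Plagl2 by 0.74, while the adaptor Grb7 fell by 2.62. None of 8 genes for keeping imprints was called (limma), and their median was -0.17.

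Markers of other cells moved in this comparison as well. All 6 blood genes were called higher, and their summed normalised intensity had a median of 29348 in tail bud arrays and 1003 in earlier ones, with Hba-a1 the most abundant. All 7 visceral endoderm genes were called lower, their sum having medians of 266 and 2104 with Apoa1 the most abundant, and Afp, Apoa2, Ttr and Apob were detected on no tail bud array. Of 4 endothelial genes 3 were higher and of 5 surface ectoderm genes 2 were. Of the progenitor markers 3 of 5 were higher and 1 lower, of the node markers 1 was higher and 1 lower of 3, of paraxial mesoderm 2 of 3 were higher, of lateral mesoderm 2 of 3 lower, and of the anterior neural plate Otx2 alone was lower of 3. The single tested genes of neural tube and connective tissue were not called, and 4 trophoblast markers were detected on no array. Their part in the imprinted genes' differences was not tested.

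At E8.5 the posterior streak, St5, which gives rise to lateral and extraembryonic mesoderm, stood apart from the other 4 regions. There 7 of the 9 genes rose, against 6.1% of all genes called and 3% called higher. The median difference was 1.19, beside -0.01 over all genes. Dlk1, the Notch ligand relative, read 13.41 and 13.45 in St5, while the 10 other arrays ran from 9.74 to 10.68 with a median of 10.48. The groups were far apart, with no overlap. Dlk1 rose by 2.96 ± 0.33, or 7.80-fold (adjusted p = 1.91e-06), and its second probe by 3.75 ± 0.38.

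The Igf2 and H19 pair rose here too. H19 read 14.20 and 14.14 in St5 and between 11.68 and 13.14 (median 12.60) elsewhere, a rise of 1.59 ± 0.25 (adjusted p = 0.000173). Igf2 read 14.59 and 14.39 against 12.20 to 13.62 (median 13.28), a rise of 1.09 ± 0.21 (adjusted p = 0.00129). Both St5 arrays exceeded every other E8.5 array for each gene. Igf2r, the receptor that removes Igf2, read 10.21 and 10.44, and the other arrays 9.23 to 10.37 (median 9.37). Here 1 array overlapped, NSB replicate 3, which read 10.37 before batch adjustment, and with batch as a term Igf2r rose by 1.12 ± 0.23 (adjusted p = 0.00323). Its second probe, 1.43 higher, was not called (adjusted p = 0.535).

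Promoter windows of the growth factor and its clearing receptor are shown because the pair rose together in St5. RefSeq promoter entries matched 7 of the 10 genes, with 13 start sites in all, and none was at hand for H19, Cdkn1c and Peg10. Each window is the 250 bases before a start, GRCm38.p6, minus strand, read 5′ to 3′, with capitals marking GGGCGG on either strand, the core of the GC box. This core occurs in 32.7% of 32841 promoter windows. The first Igf2 window holds 1 CpG and the Igf2r window 27, where the median window holds 6. The other 3 Igf2 windows lie inside the gene and were not printed. They hold 10, 22 and 6 CpG, and the last 2 have the core 1 and 2 times, so the window shown does not stand for all Igf2 starts. Igf2r has the core 3 times and the Igf2 window shown does not have it. Neither window holds TATAAA (12.4% of windows, either strand) or GGGGCCCC (0.889%).
Igf2, chr7:142666817-142667066: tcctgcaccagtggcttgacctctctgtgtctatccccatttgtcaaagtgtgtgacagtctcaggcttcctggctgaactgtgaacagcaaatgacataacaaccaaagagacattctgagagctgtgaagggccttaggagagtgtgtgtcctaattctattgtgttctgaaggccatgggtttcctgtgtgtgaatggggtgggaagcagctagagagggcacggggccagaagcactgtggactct
Igf2r, chr17:12769707-12769956: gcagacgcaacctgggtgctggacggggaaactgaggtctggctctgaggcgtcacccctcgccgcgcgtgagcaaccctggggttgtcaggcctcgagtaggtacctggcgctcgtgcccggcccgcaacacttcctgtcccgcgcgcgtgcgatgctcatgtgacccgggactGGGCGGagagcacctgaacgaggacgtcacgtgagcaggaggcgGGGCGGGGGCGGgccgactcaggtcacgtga

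Peg3, Peg10 and Cdkn1c completed the set. Peg3 read 12.15 and 12.47 in St5 against 8.30 to 10.86 (median 10.58), a rise of 1.47 ± 0.30 (adjusted p = 0.00281). Its second probe, detected on 8 of the 10 other arrays, was also called higher. A further, dim Peg3 probe was detected at E8.5 only in St5, on 2 arrays, a difference of at least 1.15-fold over background. Peg10 read 8.15 and 8.41 against 4.76 to 7.88 (median 7.32), up by 1.26 ± 0.32 (adjusted p = 0.0178). For both genes the St5 arrays stood above all others of the stage. Cdkn1c read 12.34 and 12.56 against 10.12 to 12.17 (median 11.55), again without overlap, and rose by 1.19 ± 0.34 (adjusted p = 0.0397). That call was close to the threshold and was lost when any of 13 of the 35 arrays was left out. Over all 35 the difference stayed between 1.08 and 1.30. With all arrays the call was also lost with no filter on dim probes (1.19, adjusted p = 0.0734) and without the batch term (1.01, adjusted p = 0.122). The Peg10 call was lost without NSB replicate 1, and without either St5 array.

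Mest and Grb10 were not called in St5. Mest was 0.48 ± 0.29 higher (adjusted p = 0.691) and Grb10 0.17 ± 0.23 (adjusted p = 1). The St5 result rests on 2 pools. Without St5 replicate 1 the genes called were H19, Peg3, Dlk1 and Igf2r, and without replicate 2 they were H19, Igf2 and Dlk1. Within batch 1, which held St5, RN, NSB and St1, 8 genes were called against 14.5% of all genes in that fit, Mest included at 0.62, and Dlk1 was 2.91 higher. Without the batch term 3 were called against 6.22%, again H19, Igf2 and Dlk1. Of those that lost the call, Peg3 was then 2.12 higher, Peg10 1.12, Cdkn1c 1.01 and Igf2r 0.75.

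**Figure D3:**
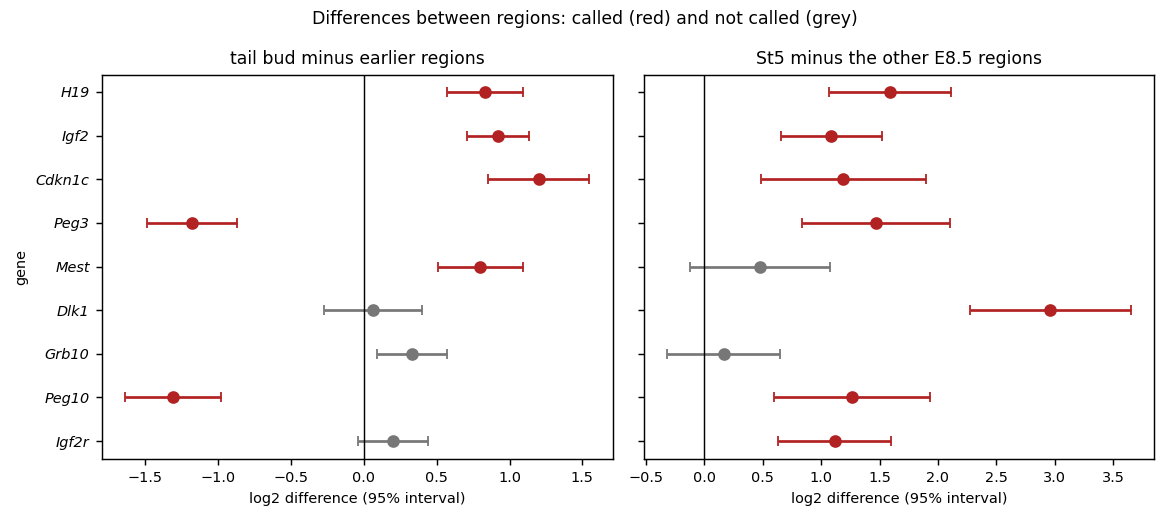
Log2 difference (x axis, bars 95% interval) for each tested gene (y axis) between tail bud and earlier regions (left) and between St5 and the other E8.5 regions (right), called genes in red. Peg3 and Peg10 were lower in the tail bud, at -1.18 and -1.31, and higher in St5, at 1.47 and 1.26.

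Among the other imprinted genes 4 of 30 rose in St5 and 2 fell, with a median of -0.01, beside 6.1% of all genes called in either direction. These and the next genes were named after their values were seen. Phlda2 rose by 2.71, Slc38a4 by 2.33, Dio3, detected on 2 of the 10 other arrays, by 1.41 and Slc22a18 by 1.16, and Ppp1r9a fell by 1.08. Dcn was called lower and was detected on neither St5 array, a fall of at least 1.56-fold to background. Of the 13 IGF pathway genes Igfbp4 rose by 1.22 and Igfbp3 by 1.20, while Igfbp5 fell by 3.42 and Igfbp2 by 0.96. Among the paralogues Plagl2 fell by 0.75, and among the genes for keeping imprints Dppa3 rose by at least 2.60-fold, detected on no other E8.5 array.

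Lateral mesoderm markers moved with St5, 3 of 3 called higher, Bmp4 by 3.38, Hand1 by at least 7.05-fold over background, and Tbx4 partly against background. Their summed intensity was 7058 and 8715 on the 2 St5 arrays and had a median of 485 elsewhere, with Bmp4 the most abundant and Hand1 detected on no other E8.5 array. Endothelial genes Tek, detected on 1 of the 10 other arrays, and Cdh5 rose (2 of 4), the list's sum having medians of 514 and 117, with Emcn, Cdh5 and Pecam1 detected on no other array of the stage. Col1a1, the single connective tissue gene tested, was likewise detected only in St5 and rose by at least 1.37-fold over background. Noto, Meox1 and Nkx1-2 fell, 1 each of 3 node, 3 paraxial mesoderm and 5 progenitor markers. None of 6 blood, 7 visceral endoderm, 5 surface ectoderm or 3 anterior neural genes was called (limma), and Noto, Afp, Apoa2, Alas2 and Hbb-y were detected on neither St5 array. Their part in the imprinted genes' rise was not tested.

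The remaining E8.5 regions gave no called imprinted growth gene. In RN 0 of 9 were called with limma, against 2.53% of all genes, and 1 had an unadjusted p under 0.05. For NSB the values were 0, 2.52% and 2, for St1 they were 0, 0.521% and 1, and for CLE 0, 1.14% and 4. These comparisons share arrays with that of St5, which stands in the mean each of them is set against. H19 was lowest in CLE, at 11.73, 12.18 and 11.68, below all 9 other E8.5 arrays, which ran from 12.53 to 14.20. Its difference of -1.14 ± 0.38 was not called (adjusted p = 0.277), and no CLE array shared batch 1 with RN, St1 and St5. The paper states that the endoderm and presomitic mesoderm under CLE were cut away, so CLE pieces held fewer tissues. The summed visceral endoderm intensity was 281 to 582 in CLE and 702 to 1340 in NSB, the next lowest E8.5 region. The part of this dissection in the difference of H19 was not tested. When BeadChip was fitted as a random block 4 genes were called in CLE against 3.7% of all genes in that fit, without the batch term 3 against 13.9%, and without the 5 arrays with fewest detected probes 3 against 8.97%.

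Within batch 1 alone, where CLE had no array, the spread was smaller and some values were called, against 7.66% of all genes in RN, 4.83% in NSB and 6.45% in St1. Dlk1 was called lower in RN (-0.92), NSB (-0.92) and St1 (-1.07). Peg3 and Peg10 were called lower in NSB, at -0.59 and -0.60, and H19 and Cdkn1c in St1, at -0.80 and -1.11. Each of these differences was taken against a mean that held St5. In this batch replicate 1 of every region was on the same BeadChip and replicate 2 on another, and with BeadChip as a term the same genes were called. That fit was added after seeing the data.

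Step by step along the progenitor regions, few changes were called. From E7.5 P to NSB 1 of 9 genes was called, against 3.24% of all genes. Peg3 read 12.63 and 11.41 in P and 10.86, 10.51 and 8.30 in NSB. Every NSB array was below both P arrays, and the NSB array of batch 3 was lowest. Peg3 fell by 2.03 ± 0.46, or 4.10-fold (adjusted p = 0.0146). Without E7.5 P replicate 1 the value was -1.42 and was not called. It was likewise not called without the batch term (-2.13, adjusted p = 0.078) or when BeadChip was a random block (adjusted p = 0.293). Adjusted p ran from 0.00148 to 0.106 over the left-out arrays and from 0.0127 to 0.293 over the other settings. In this step all 3 node markers were called higher, 2 of 7 visceral endoderm genes and 1 of 3 anterior neural genes lower, and 1 of 6 blood genes higher. The visceral endoderm sum was 6066 to 10763 in P and 702 to 1340 in NSB, with Apoa1 the most abundant. Apoa2 and Apob were detected on no NSB array, and Afp on no array of either region. Their part in the difference of Peg3 was not tested.

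From NSB to E9.5 CNH Igf2 alone was called, 1 of 9 against 5.76%. Igf2 read 13.43, 13.62 and 13.07 in NSB and 13.80 and 13.91 in E9.5 CNH. The groups did not overlap, though the gap was narrower than the spread within NSB. The batch-adjusted rise was 1.11 ± 0.32, or 2.16-fold (adjusted p = 0.0414). The call was lost without any of 16 of 35 arrays, with adjusted p reaching 0.163, where the difference stayed between 0.99 and 1.18. It was also lost under cyclic loess (log2 difference 0.96, adjusted p = 0.223), without the batch term (0.48, adjusted p = 0.276) and when BeadChip was a random block (0.79, adjusted p = 0.19). Over all alternatives adjusted p ran from 0.0203 to 0.276.

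Other lists moved in the step from NSB to E9.5 CNH. Of 13 IGF pathway genes 3 were called higher and 1 lower, Igfbp3 and Irs2 rising by 1.36 and 2.33, and of 30 other imprinted genes 0 were called higher and 3 lower, Phlda2 falling by 3.66. These were named after their values were seen. Of 6 blood genes 3 were called higher. The summed intensity of the blood list was 37271 to 37803 in E9.5 CNH and 1181 to 3939 in NSB, with Hba-a1 the most abundant and Alas2 and Hbb-y detected on no NSB array. Of the paraxial mesoderm, anterior neural and surface ectoderm lists 1 gene each was called lower, Meox1, Otx2 and Cldn4, and Otx2 was detected on no E9.5 CNH array. No visceral endoderm gene was called (limma), and all 7 were detected on no E9.5 CNH array. Their part in the difference of Igf2 was not tested.

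Through the stages of the hinge itself no imprinted growth gene was called with limma when batch was a fixed term. From E9.5 to E10.5 0 of 9 were called against 0.0836% of all genes, and 1 had an unadjusted p under 0.05. From E10.5 to E11.5 the values were 0, 0.09% and 0, from E11.5 to E12.5 0, 0.244% and 1, and from E12.5 to E13.5 0, 9.69% and 2. In the hinge H19 read 13.45 and 13.54 at E9.5, 13.86 and 13.94 at E10.5, 14.32, 14.15 and 14.17 at E11.5, 14.44 and 14.35 at E12.5, and 14.47 and 14.65 at E13.5. Before batch adjustment the arrays of each stage lay above those of the stage before on this probe, the most intense. With batch adjusted its arrays of E11.5 and E12.5 overlapped, and no single step passed the test. The second H19 probe did not keep that order before adjustment, with means of 13.11 at E10.5 and 12.77 at E11.5. With batch adjusted these were 12.82 and 13.05. Dlk1 read 11.33, 11.48 and 11.83 at E11.5, 10.64 and 11.22 at E12.5, and 10.04 and 10.83 at E13.5, with differences of -0.75 ± 0.35 and -0.49 ± 0.38 for these steps. Igf2r was 0.74 ± 0.27 higher at E13.5 than at E12.5 (adjusted p = 0.0792). Its second probe went the other way, with batch-adjusted means of 9.70 at E12.5 and 7.67 at E13.5. That probe was detected on 1 of 2 E13.5 arrays and was not called (adjusted p = 0.124). That step depended on the fit: Igf2r was called when BeadChip was a random block, against 16.3% of all genes, H19 and Igf2 were called under cyclic loess, against 3.19%, and leaving out single arrays gave 0 to 2 called genes.

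Other genes of the lists also changed along the hinge. In the last step 2 of 30 other imprinted genes were called, Phlda2 and Tssc4, which rose by 1.59 and 1.12, beside 9.69% of all genes. Of 13 IGF pathway genes 2 were called higher, Igfbp2 by 1.30, and of 8 genes for keeping imprints 1 higher and 1 lower. From E9.5 to E10.5 1 of the 13 IGF pathway genes was called, Igfbp7, which rose by 3.17. These were also named after their values were seen. In the last step all 4 endothelial genes were called higher, with Tek and Pecam1 detected on no E12.5 array, and their sum was 218 and 362 on the E12.5 arrays and 899 and 1242 on those of E13.5, with Emcn the most abundant. Of the progenitor markers 2 of 5 were called lower, of the node markers 1 of 3, and 1 of 3 lateral mesoderm and 1 of 6 blood genes were called higher. No surface ectoderm gene was called (limma), though the sum of that list was 1618 to 1694 at E12.5 and 4211 to 4261 at E13.5.

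At E7.5 the anterior region was set against the posterior one, which contains the streak, and 1 of 9 genes was called against 2.88% of all genes. Dlk1 read 8.33, 8.22 and 10.51 in A and 10.64 and 10.73 in P. Every A array was below P, but replicate 3, from another batch than the rest, fell short by little. With batch as a term Dlk1 fell by 1.92 ± 0.35, or 3.78-fold (adjusted p = 0.00183), and its second probe was also called lower, with 1 of 3 A arrays above background. Mest was 1.04 ± 0.31 higher in A on its most intense probe (adjusted p = 0.0793), and its second probe was called, at 0.85 ± 0.21 (adjusted p = 0.03). Left-out arrays added another called gene in 4 of 36 cases.

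Cell type markers differed between these E7.5 regions too. All 5 progenitor markers were called lower in A and 2 of 3 paraxial mesoderm markers were, while 2 of 3 anterior neural markers and 1 of 3 node markers were called higher and 1 of 7 visceral endoderm genes lower. The progenitor sum was 1473 to 2615 in A and 22441 to 23241 in P, with T the most abundant and Wnt3a detected on no A array. Tbx6 was detected on no A array either. Their part in the difference of Dlk1 was not tested.

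For PP, the proximal posterior region, 0 of 9 genes were called against P with limma, beside 0.829% of all genes, and 3 had an unadjusted p under 0.05. Dlk1 read 12.75 and 12.16 in PP, above both P arrays, with a difference of 1.00 ± 0.43 (adjusted p = 0.4). Without E7.5 A replicate 3 Dlk1 was called. Both PP arrays were in batch 3 and both P arrays in batch 2, so this difference leans on the batch term. Of the markers, 2 of 7 visceral endoderm and 1 of 3 lateral mesoderm genes were called higher in PP. Called lower were 2 of 3 paraxial mesoderm and 1 of 3 anterior neural genes. The visceral endoderm sum was 17969 to 37659 in PP and 6066 to 10763 in P. The part of these markers in the difference of Dlk1 was not tested.

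Within the tail bud, CNH was compared with P-CNH at E9.5 to E11.5, which separates the hinge from the mesoderm behind it. Of 9 genes 0 were called with limma, against 0.649% of all genes, and 3 had an unadjusted p under 0.05. These were Dlk1, at 0.65 ± 0.23 (adjusted p = 0.518), Peg10, at 0.60 ± 0.22 (adjusted p = 0.6), and Cdkn1c, at 0.49 ± 0.23 (adjusted p = 1). Cdkn1c read 13.28 and 13.19 in the hinge and 12.59 and 12.12 behind it at E9.5, and 13.15 and 13.22 against 12.52 and 12.52 at E10.5, apart at both stages. At E11.5 its arrays overlapped, at 14.10, 13.97 and 13.25 against 13.49 and 12.75. Whether the difference itself changed with stage was tested, and 0 of 9 genes were called (limma) against 0.0386% of all genes, with 0 at an unadjusted p under 0.05.

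Ordered by batch-adjusted region means, the genes fell into different sequences. H19 and Igf2 were highest in E13.5 CNH, at 14.61 and 14.59, and lowest in CLE (11.89) and St1 (12.88). Cdkn1c was highest in E10.5 CNH (13.66) and lowest in CLE (10.86), and Mest highest in E12.5 CNH (12.59) and lowest in E7.5 P (10.13). The other 2 Mest probes were highest in E13.5 CNH (12.62 and 11.51) and also lowest in E7.5 P. For these 4 genes between 2 and 6 of the 15 steps between neighbouring regions had arrays that did not overlap, so most neighbours did not differ beyond their spread. Before batch adjustment the highest means were those of St5 for Igf2 (14.49), E11.5 CNH for Cdkn1c (13.78) and E10.5 P-CNH for Mest (12.81). The lowest were then CLE for Igf2 (12.75) and St1 for Cdkn1c (10.94). E13.5 CNH and CLE, at the ends of some orders, held 3 of the 5 arrays with fewest detected probes, and E11.5 P-CNH another.

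Peg3 was highest in E7.5 PP (12.65) and lowest in E11.5 P-CNH (8.82), a range of 3.83. Before batch adjustment Peg3 was highest in St5, with a mean of 12.31 beside 11.29 in PP. Dlk1, Peg10 and Igf2r were all highest in St5, at 13.16, 8.31 and 11.04, each apart from the next region. The lowest region of Dlk1 (9.29) and Igf2r (9.16) was E7.5 A. Before batch adjustment Igf2r was highest in E13.5 CNH (mean 10.78, beside 10.32 in St5) and lowest in St1 (9.37). Peg10 was detected on no array of E9.5 CNH, E10.5 P-CNH and E13.5 CNH, so its low regions were not ranked. On its most intense probe Grb10 ranged by 0.62, from 13.84 in E9.5 CNH to 13.22 in St1, with 1 of 15 neighbouring steps free of overlap. That probe was near the top of the intensity range, and the second Grb10 probe ran more widely, from 7.19 in E11.5 P-CNH, where 1 of 2 arrays detected it, to 8.66 in E12.5 CNH.

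**Figure D4:**
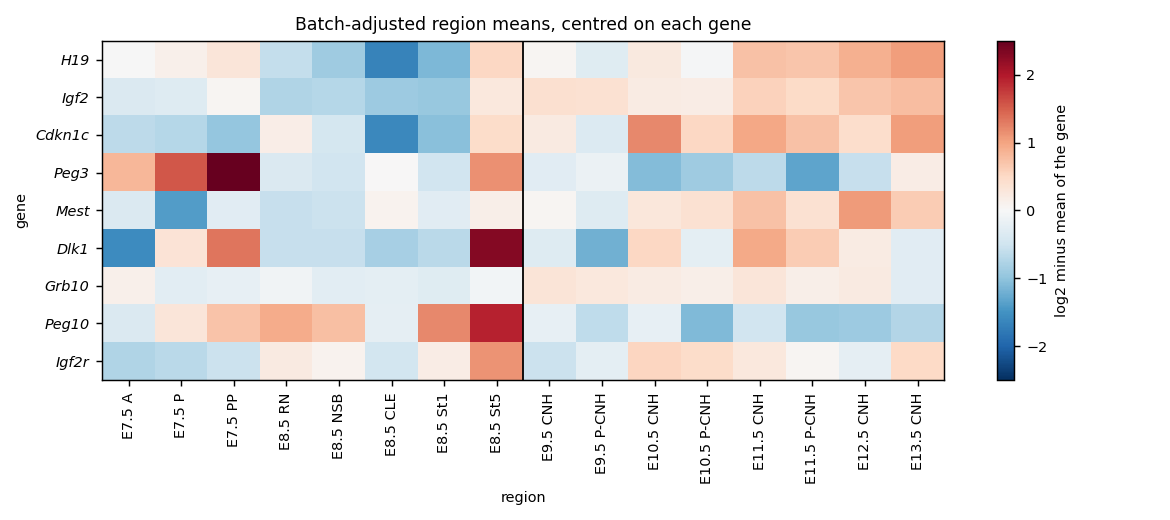
Batch-adjusted mean of each tested gene (rows) in each region (columns), as log2 difference from the mean of that gene over the 16 regions, with a line between E8.5 and E9.5. Igf2, H19, Cdkn1c and Mest are higher on the right, Peg3 is highest in E7.5 PP, and Dlk1 and Peg10 are highest in St5.

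Over the 16 region means, which share arrays and the batch term, the 36 pairs of genes had a median Pearson r of 0.31. Of these, 9 were above 0.5 and 2 below -0.5. H19 and Igf2 followed each other most closely (r = 0.89), then Igf2 and Cdkn1c (0.75) and H19 and Cdkn1c (0.74). Peg10 ran opposite to Grb10 (-0.55) and Igf2 (-0.53). Peg10 was at background on 15 of 36 arrays, so its r values rest partly on background.

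The 3 genes most alike to each were sought among 10825 other genes detected on at least 18 arrays, over the same 16 regions. For Igf2 they were St3gal6 (0.96), Tulp4 (0.95) and Itpkb (0.94). H19 had LOC100048105 (0.93), Pttg1ip (0.91) and Tax1bp3 (0.90), and Cdkn1c had Ssbp4 (0.92), Mmp11 (0.92) and St6galnac4 (0.91). Mest was most like Mrpl50 (0.92), Rabgap1 (0.89) and Uso1 (0.89), and Peg3 like Rassf3 (0.91), Pip4k2a (0.91) and Mesp1 (0.88). Dlk1 had Tbx3 (0.88), LOC100045780 (0.83) and Arhgef5 (0.83), and Igf2r had Ece1 (0.94), Erbb2 (0.93) and Laptm4a (0.92). For Grb10 they were A830007F21Rik (0.89), Socs2 (0.89) and 9330132O05Rik (0.88), and for Peg10 A830007P12Rik (0.90), Gfpt2 (0.87) and Fam113b (0.87).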

How the data were processed

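RNA from 36 pools of dissected mouse embryo pieces was measured on Illumina arrays. The authors processed the arrays with lumi (version not given), and the deposited table gives each probe's intensity, linear and not normalised. The deposited table also gives a detection p-value for each intensity. Here limma 3.58.1 in R 4.3.3 corrected background and normalised by quantiles (neqc, offset 16, negative controls inferred from detection p). Probes with detection p under 0.01 on at least 1 array were kept, 21712 of 45281. A model with 16 regions and 3 batches gave moderated tests with 18 residual degrees of freedom, two-sided, with Benjamini-Hochberg adjustment over all 21712 probes in each comparison. Calls needed adjusted p of at most 0.05 and 1.5-fold.

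A gene stood by its most intense tested probe. Named genes were all members, up to 4 per direction from each list in the tail bud comparison, and the 3 most alike in pattern. Other genes and markers were named after their values were seen. Members and lists were chosen with earlier results of these data known. Alternatives were other background, offset, normalisation, batch, BeadChip, filter and replicate choices, single batches, and leaving out each array. The steps were tested on simulated data. Array number limits precision: most regions had 2 arrays.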

Additional observations from a re-analysis of the deposited data

How the results depend on the processing

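The tail bud count of 6 was 5 without the batch term, 7 in batch 2 alone (29.9% of all genes), 1 in batch 3 alone (5.13%), and 6 under the other alternatives and without each of 35 arrays in turn. For 21 single gene results, 920 of 979 values kept their direction and call, 53 lost the call, 4 gained it and 2 changed sign, Dlk1 in the tail bud at -0.053 without the batch term and -0.12 when BeadChip was a random block. The cause was not tested for any of the changes given here.

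Counts of called members are given here with the share of all genes called in the same fit. Cyclic loess gave 0 from NSB to E9.5 CNH (3.81%) and 2 from E12.5 to E13.5 CNH (3.19%). In the first of these steps it also gave 24.7% higher among all called genes, beside 38.8%. Without the batch term 1 was called in PP (1.66%), 3 in CLE (13.9%) and 3 in St5 (6.22%). BeadChip as a random block gave 2 from E7.5 P to NSB (3.06%), 2 from NSB to E9.5 CNH (5.48%), 1 from E12.5 to E13.5 CNH (16.3%) and 4 in CLE (3.7%). The genes called under the block did not include Peg3 in the first of these steps or Igf2 in the second. Batch 1 alone gave 1 in RN (7.66%), 3 in NSB (4.83%) and 3 in St1 (6.45%). With its BeadChips as a term, chosen after seeing the data, it again gave 1 (7.75%), 3 (4.99%) and 3 (6.64%), with 6 in the tail bud (19.8%) and 8 in St5 (14.6%). Another alternative chosen after seeing the data left out the 5 arrays with fewest detected probes. It gave 2 from E7.5 P to NSB (18.4%), 2 from NSB to E9.5 CNH (19.9%), 1 from E12.5 to E13.5 CNH (14.1%), 3 in E7.5 A (9.09%), 1 in PP (2.65%), 1 in RN (5.63%), 3 in CLE (8.97%) and 1 in CNH against P-CNH (1.54%).

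Leaving out single arrays gave 3 to 7 in St5, 0 to 1 from E7.5 P to NSB, 0 to 1 from NSB to E9.5 CNH, 0 to 2 from E12.5 to E13.5 CNH, 1 to 2 in E7.5 A and 0 to 1 in PP. Where a region kept 1 array, that array was assumed to vary like the other regions. The share of all genes called without each array is not given here. Without NSB replicate 3, comparisons that join batch 1 to the others could not be estimated.

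With the replicate block, the replicate number as a further term, 6 genes were called in the tail bud and 7 in St5. There was 1 in each of E7.5 A, NSB against E7.5 P and E9.5 CNH against NSB, and 0 in every other directional comparison. These equal the counts of the main fit, which called 20.7% of all genes in the tail bud and 6.1% in St5. The shares under the block are not given here. Arrays sharing a number did not in general deviate together. Over 246 such pairs the median residual r was 0.00148, with a range from -0.71 to 0.61 and 63 pairs over 0.1. For 360 pairs of other numbers the median was -0.00148. Of 36 arrays, 19 were most like an array of their own number, so the number was not read as a pairing over all stages. A pairing of regions within a stage was not tested on its own. Pool sizes matched at some stages, with 45 pieces in RN, St1, St5 and NSB replicates 1 and 2, and 17 in both E10.5 regions. At E7.5, A and P each held 9 pieces in replicate 1 and 13 in replicate 2. Those of E11.5 did not match. Whether matching pools came from the same embryos was not tested. The BeadChip block correlation was 0.48.

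Signal over background limits Plagl1, Peg10 in the tail bud, both dimmer Peg3 probes, the second Dlk1 probe in E7.5 A, and the second probes of Igf2r and Grb10 in E13.5 CNH and E11.5 P-CNH, among other dim list and marker genes.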

Other observations

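Placing the probes of a gene side by side, 6 of the tested genes had more than 1 tested probe. In the tail bud comparison both H19 probes and all 3 Mest probes were called higher, and 2 of 3 Peg3 probes lower. In St5 both H19, all 3 Peg3 and both Dlk1 probes were called higher, 11 of 17 probes in all. The dimmest Peg3 probe was detected on 3 arrays in all, and at E8.5 only on the 2 of St5. Its call was therefore made against background and is weaker evidence than those of the other Peg3 probes. Counted by gene, 3% of all genes were called higher in St5, and the share of all probes is not given here. Grb10 and Peg10 each had a further probe that was detected on no array.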
